A study of Mus musculus with 33 samples.

Results

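Hepatocytes keep their character through a small set of transcription factors that bind together at liver enhancers and promoters and regulate one another. Here 9 of these genes were followed in mouse liver and liver tumours: Hnf4a, Nr5a2, Foxa1, Foxa2, Foxa3, Cebpa, Cebpb, Onecut1 and Prox1. They were picked by name out of 18193 measured genes, and each was read from the probe set (a group of short array probes for a transcript) that carries its symbol alone and has the highest mean over all columns. All 9 were measured. Every liver came from a mouse of 12 months on a mixed FVB/NT, 129S1/Svlmj and C57BL/6NT background. The altered mice were E2F1 knock-ins (1KI, 5 tumours), E2F3b knock-ins (3bKI, 4 tumours) and E2F3a knock-outs (3aKO, 5 normal livers), and wildtype mice (wt, 7 normal livers) were the control. The labels call the 1KI and 3bKI samples spontaneous hepatocellular carcinoma, so genotype and tumour cannot be told apart in them. The locus of the knock-ins, the zygosity of the alleles and the share of tumour cells in a sample are not given in the sources used here.

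The authors normalized the arrays in separate runs. Normalization 1 holds 1KI, 3aKO and wt, and normalization 2 holds 3bKI, 3aKO and wt, with the same 3aKO and wt arrays in each. Values are log2 units, in which a step of 1 is a doubling of signal, and they were compared only within a normalization and a probe set. Differences are given as log2 changes with a moderated standard error (SE) from limma, and a gene counts as called at a Benjamini-Hochberg adjusted p under 0.05 over all 18193 genes. Group means carry the standard deviation (SD). In bulk tissue, fewer hepatocytes and less RNA per hepatocyte cannot be told apart.

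HNF4A is a nuclear receptor that drives much of the liver's secretory and metabolic programme. NR5A2 (LRH-1) is a nuclear receptor of bile acid and cholesterol metabolism. FOXA1, FOXA2 and FOXA3 are forkhead proteins that open chromatin for other factors, and FOXA1 and FOXA2 are needed for the liver bud to form. C/EBPalpha holds hepatocytes in a quiescent, metabolic state, while C/EBPbeta is induced in regeneration and in the acute phase response. ONECUT1 (HNF6) acts in hepatocytes and in bile duct development, and PROX1 is a homeobox factor of hepatocyte migration and metabolism that also marks lymphatic endothelium. E2F proteins, the targets of the genetics here, bind the promoters of cell cycle genes.

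Promoter windows of the members whose levels carry the results, Cebpa, Nr5a2, Prox1 and Hnf4a, are shown because the study altered promoter-binding factors. Each window runs from 250 bases before to 50 bases after a RefSeq start site on GRCm38.p6, 5′ to 3′ on the gene's strand, and capitals mark motif matches. The Cebpa window is chr7:35119043-35119342 (plus strand), the Nr5a2 window printed is chr1:136960399-136960698 (minus), the Prox1 window printed is chr1:190170778-190171077 (minus), and Hnf4a has an upstream start (chr2:163506607-163506906, plus) and a downstream start (chr2:163546905-163547204, plus). Nr5a2 and Prox1 each have a further window that is not printed. That of Nr5a2 (chr1:136953581-136953880, minus) held no motif match. That of Prox1 (chr1:190169466-190169765, minus) held a forkhead match at -120.
Cebpa: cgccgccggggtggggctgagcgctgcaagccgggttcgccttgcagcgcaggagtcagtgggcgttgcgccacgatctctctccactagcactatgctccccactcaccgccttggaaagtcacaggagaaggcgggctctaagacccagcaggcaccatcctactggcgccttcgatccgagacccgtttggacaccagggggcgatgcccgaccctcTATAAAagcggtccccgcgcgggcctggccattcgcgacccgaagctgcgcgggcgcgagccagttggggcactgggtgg
Nr5a2: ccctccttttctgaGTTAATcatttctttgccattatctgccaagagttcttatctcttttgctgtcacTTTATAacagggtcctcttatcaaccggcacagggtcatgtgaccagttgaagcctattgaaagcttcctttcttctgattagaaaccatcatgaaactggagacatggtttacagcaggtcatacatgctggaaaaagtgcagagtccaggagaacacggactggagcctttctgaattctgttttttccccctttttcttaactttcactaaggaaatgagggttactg
Prox1: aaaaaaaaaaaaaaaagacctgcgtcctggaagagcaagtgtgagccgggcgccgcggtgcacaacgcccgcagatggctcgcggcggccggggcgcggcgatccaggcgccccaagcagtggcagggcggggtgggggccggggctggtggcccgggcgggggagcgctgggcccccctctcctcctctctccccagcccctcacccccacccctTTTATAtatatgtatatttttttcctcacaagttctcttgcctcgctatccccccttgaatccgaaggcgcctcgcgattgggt
Hnf4a upstream: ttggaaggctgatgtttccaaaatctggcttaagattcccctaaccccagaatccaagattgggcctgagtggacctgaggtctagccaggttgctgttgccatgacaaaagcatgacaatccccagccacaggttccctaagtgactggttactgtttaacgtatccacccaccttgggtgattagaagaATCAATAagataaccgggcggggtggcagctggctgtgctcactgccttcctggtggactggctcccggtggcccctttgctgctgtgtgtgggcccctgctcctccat
Hnf4a downstream: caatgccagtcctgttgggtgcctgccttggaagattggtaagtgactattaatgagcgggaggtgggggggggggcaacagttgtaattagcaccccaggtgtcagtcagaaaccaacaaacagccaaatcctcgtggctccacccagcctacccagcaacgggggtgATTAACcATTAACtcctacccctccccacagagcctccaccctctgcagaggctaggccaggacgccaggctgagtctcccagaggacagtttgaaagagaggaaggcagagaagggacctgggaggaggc

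All 9 members matched the RefSeq table, with 14 windows among them. None of the 14 held an E2F motif (TTTCCCGC, TTTCGCGC, TTTGCCGC or TTTGGCGC, on either strand), which 2.26% of all 32851 windows did. The TATA box letters (TATAAA) were found, on either strand, in 6 of the 14 and in 13.6% of all windows. On the gene's strand they lay at -30 from the start site in Cebpa, at -36 in Foxa3, and at 21 after it in Cebpb. In Nr5a2 (-181), Foxa2 (-208) and Prox1 (-34) they were on the opposite strand, as TTTATA in the printed sequence. The downstream Hnf4a window held the HNF1 core motif GTTAAT on its minus strand at -81 and at -74, and this motif was in 3 of the 14 and in 7.1% of all windows. The upstream Hnf4a window held an ONECUT motif (TATTGAT or TATTGAC) on its minus strand at -59, a motif found in 3 of the 14 and in 3.4% of all windows. Forkhead motifs (TGTTTAC or TGTTTGC) were in 2 of the 14 windows, 1 of Foxa1 and 1 of Prox1, against 8.48% of all. No window of a member held the searched motifs of HNF4 (CAAAGTCCA), NR5A2 (CAAGGTCA) or C/EBP (TTGCGCAA, TTGCGTAA, TTGTGCAA or TTGTGTAA), which 0.475%, 1.56% and 2.08% of all windows did. No match overlapped another, and a match is a run of letters, not a measured binding site.

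The label of liver held for the arrays as a whole: each of 14 hepatocyte markers, from Alb to Asgr2, ranked at or above the 89.8th percentile of genes by mean. Within groups, arrays correlated across genes at r of 0.968 to 0.995. In normalization 1, 1KI replicates 3 and 4 scored 61.0 and 69.8 on the first principal component, and the other arrays -17.0 to 5.08. Sex, read from Xist and 3 Y-linked genes, gave 2 females and 3 males in 1KI, 3 females in 3bKI with 1 further array that could not be read, 3 females and 2 males in 3aKO, and 3 females and 4 males in wt. The 3'/5' ratio of the beta-actin control probe sets (log2), which rises as RNA breaks down, was 0.70 to 0.87 in 3bKI, 1.06 to 1.35 in 3aKO and 0.65 to 1.37 in wt (normalization 2), and 0.91 to 1.28 in 1KI (normalization 1). E2f3 and E2f1 were called in none of the 5 comparisons, and a probe set outside an altered exon checks no allele.

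In 3bKI tumours, 3 of the 9 factors were lower than in 3aKO liver and none was higher: Prox1, Cebpa and Nr5a2. The falls were moderate, to 62.9%, 74.3% and 76.5% of the 3aKO level. Hnf4a lay lower as well without passing the test, and the 3 Foxa genes, Cebpb and Onecut1 did not pass it. Over all genes, 6.27% were called lower and 2.92% higher in this comparison, so 3 of 9 members stands beside a background of 6.27%. That share includes dim genes, while each member ranked at or above the 69.4th percentile of genes by mean. With the 40% of genes of lowest mean left out, 1345 of the fewer genes were called lower and 385 higher. The share called lower among brighter genes, here and for the lists below, is therefore above 6.27%. For lack of overlap, 2 of 9 members had all 3bKI arrays below all 3aKO arrays and 0 had all above, beside 8.95% and 6.03% of all genes. The median change of the members was -0.28, and that of all genes 0.03, or -0.08 with the 40% of lowest mean left out.

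Prox1 was at 7.35, 7.41, 7.31 and 7.40 in 3bKI tumours, against 7.85, 8.21, 7.69, 8.49 and 7.95 in 3aKO livers. The 3bKI arrays lay within a narrow band, and every one was below every 3aKO array. Wt livers ran from 7.40 through a median of 7.75 to 8.22, so that wt replicate 6, at 7.40, fell among the tumours. The log2 change was -0.67 ± 0.15 against 3aKO (limma adjusted p = 0.0268) and -0.42 ± 0.14 against wt (adjusted p = 0.113).

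The 2 further Prox1 probe sets pointed the same way. With every probe set tested on its own, the chosen one gave an adjusted p = 0.0255, 1421336_at gave -0.54 ± 0.13 (adjusted p = 0.0349) and 1457432_at -0.43 ± 0.15 (adjusted p = 0.0921). In both of these, too, all 3bKI arrays lay below all 3aKO arrays. The same 2 probe sets stood at -0.36 ± 0.15 (adjusted p = 0.222) and -0.20 ± 0.15 (adjusted p = 0.487) when 3bKI was set against wt. Prox1 also marks lymphatic endothelium, and the list at hand mixes lymphatic with other endothelial markers. Its mean level in normalization 2 was 7.63 to 7.98 in 3bKI, 7.47 to 7.93 in 3aKO and 7.48 to 7.83 in wt. None of the 10 measured was called in either 3bKI comparison. Against 3aKO 7 lay above 0 and 3 below. The 2 of lowest p, Flt4 (0.55 ± 0.18, adjusted p = 0.0780) and Lyve1 (0.76 ± 0.25, adjusted p = 0.0790), lay higher.

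Cebpa, which has 1 probe set, was at 12.46, 12.23, 12.28 and 12.28 in 3bKI tumours, against 12.60, 12.81, 12.58, 12.91 and 12.82 in 3aKO livers. The groups did not overlap. Wt livers spread wider, from 12.18 through a median of 12.55 to 13.01, and enclosed the tumours. The log2 change was -0.43 ± 0.09 against 3aKO (adjusted p = 0.0270) and -0.25 ± 0.15 against wt (adjusted p = 0.362).

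Cebpb, its partner in the C/EBP family, was at 10.23, 9.81, 10.90 and 10.32 in 3bKI tumours, against 10.79, 10.13, 11.33, 10.34 and 10.27 in 3aKO livers. Wt livers lay between 9.91 and 11.03 with a median of 10.60. All 3 groups overlapped, and the changes were -0.26 ± 0.27 against 3aKO (adjusted p = 0.541) and -0.29 ± 0.23 against wt (adjusted p = 0.516). The 95% interval against 3aKO, -0.86 to 0.34, includes both no change and a difference of the size seen for Cebpa.

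Nr5a2 was at 9.62, 9.46, 9.36 and 9.35 in 3bKI tumours, against 9.78, 9.62, 9.75, 10.04 and 9.99 in 3aKO livers. The highest tumour and the lowest 3aKO liver, both at 9.62, met. Wt livers ran from 9.57 through a median of 9.75 to 10.42, and 3 of the 4 tumours lay below all of them. The log2 change was -0.39 ± 0.11 against 3aKO (adjusted p = 0.0496), close to the threshold, and -0.47 ± 0.15 against wt (adjusted p = 0.114).

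Nr5a2 has 4 probe sets, and they differed in size of change. With every probe set tested, 1456521_at gave -0.62 ± 0.11 against 3aKO (adjusted p = 0.0143) with all 3bKI arrays lower, and -0.66 ± 0.15 against wt (adjusted p = 0.0547). The chosen probe set had an adjusted p = 0.0526 in that fit against 3aKO, 1449706_s_at gave -0.19 ± 0.09 (adjusted p = 0.194) and the dim 1449707_at -0.07 ± 0.11 (adjusted p = 0.709). The chosen probe set of Nr5a2 was picked for its mean, not its change.

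Hnf4a was at 12.12, 12.37, 12.03 and 12.30 in 3bKI tumours, against 12.66, 12.48, 12.55, 12.41 and 12.31 in 3aKO livers. Wt livers ran from 12.16 through a median of 12.61 to 12.76. The tumours sat at the low end of both normal groups and overlapped with each. The change was -0.28 ± 0.10 against 3aKO (adjusted p = 0.102) and -0.33 ± 0.12 against wt (adjusted p = 0.142), that is 82.5% and 79.5% of the normal level. Of its other 3 probe sets, 1421983_s_at gave -0.33 ± 0.11 (adjusted p = 0.0896), 1427000_at -0.26 ± 0.16 (adjusted p = 0.314) and 1450447_at -0.02 ± 0.12 (adjusted p = 0.924) against 3aKO.

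None of the forkhead genes passed the test in 3bKI tumours. Foxa1 was at 7.94, 7.93, 7.56 and 8.02 in 3bKI tumours, against 8.19, 8.04, 7.50, 8.44 and 7.83 in 3aKO livers, and between 7.52 and 8.98 with a median of 8.33 in wt livers. Its change was -0.14 ± 0.18 against 3aKO (adjusted p = 0.624) and -0.45 ± 0.22 against wt (adjusted p = 0.265). Foxa2 and Foxa3 had changes of 0.07 ± 0.22 and 0.13 ± 0.27 against 3aKO and of 0.02 ± 0.19 and 0.04 ± 0.26 against wt. The groups overlapped for every Foxa gene, and the 95% intervals of Foxa3 against 3aKO, -0.46 to 0.72, leave room for a change of either sign.

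Onecut1 was at 7.72, 8.61, 7.98 and 7.19 in 3bKI tumours, against 8.4, 8.66, 8.97, 7.84 and 7.98 in 3aKO livers, and from 6.95 through a median of 7.56 to 8.79 in wt livers. Its spread within groups was the widest of the 9 factors, with an SD of 0.59 in 3bKI, 0.47 in 3aKO and 0.64 in wt, except that Cebpb had 0.49 in 3aKO. The changes were -0.49 ± 0.30 against 3aKO (adjusted p = 0.295) and 0.23 ± 0.34 against wt (adjusted p = 0.738). Its second probe set, 1421447_at, gave 0.07 ± 0.32 against 3aKO (adjusted p = 0.901) and 0.51 ± 0.22 against wt (adjusted p = 0.241), so the probe sets differed in sign against 3aKO.

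**Figure D1:**
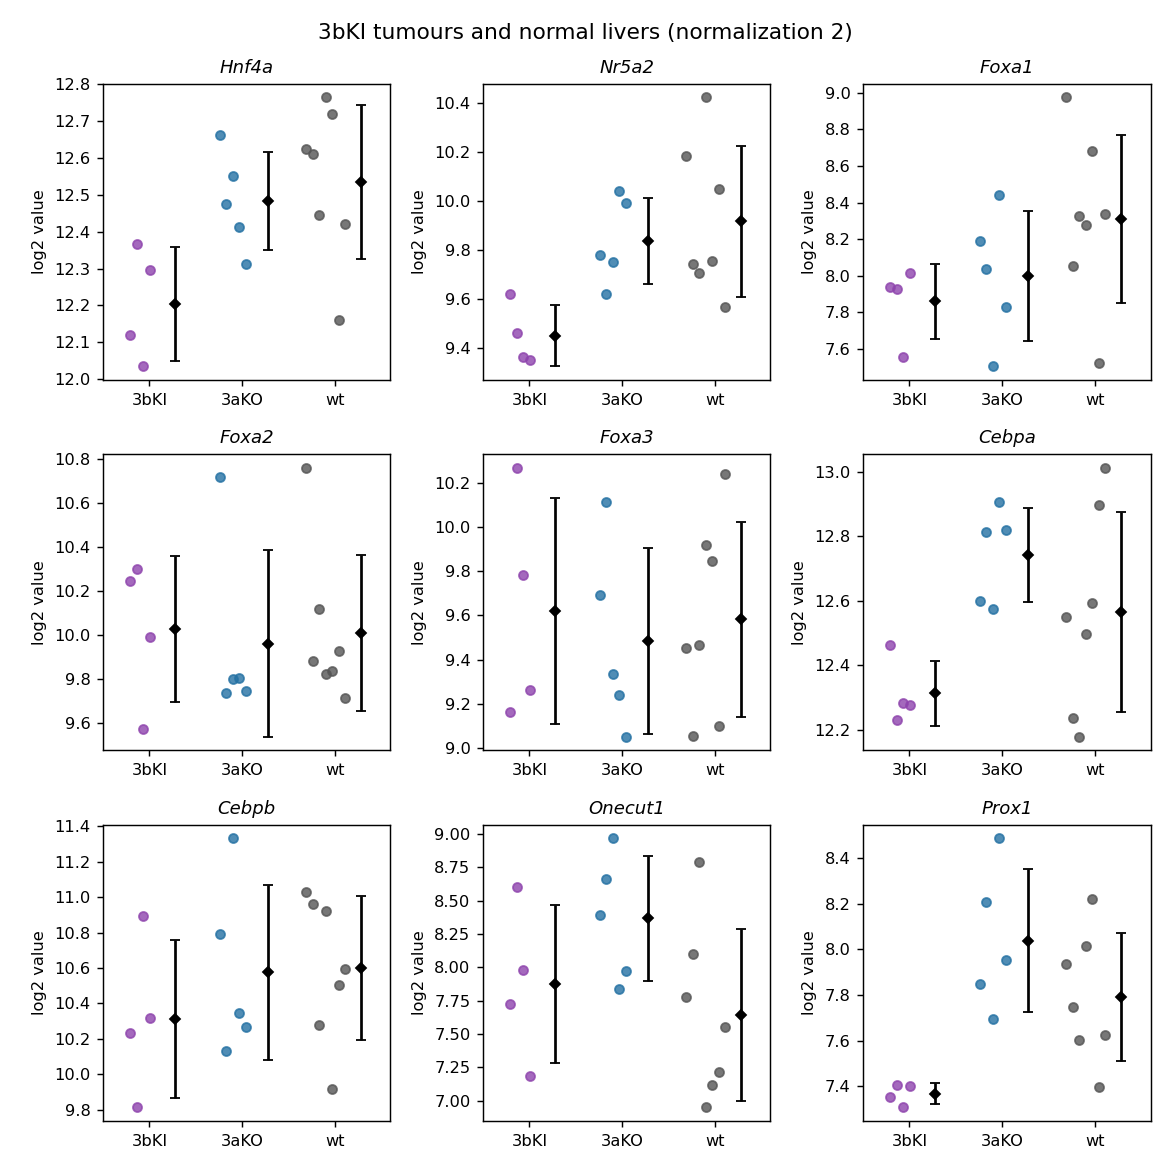
Each panel plots 1 factor's log2 value per array (points) in 3bKI tumours (4 arrays), 3aKO livers (5) and wt livers (7) of normalization 2, with the group mean and SD as a black diamond and bar. Vertical scales differ between panels and do not start at 0. Prox1 and Cebpa are the panels in which all 3bKI points lie below all 3aKO points, and in both a wt array lies as low as the tumours.

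Against wt liver, 0 of the 9 members were called in 3bKI tumours, beside 1.09% of all genes called higher and 0.978% called lower by limma. At an unadjusted p under 0.05 there were 3 members, Hnf4a, Nr5a2 and Prox1, all with lower values in 3bKI, and 3778 of all genes. The median of the members was -0.29, and that of all genes 0.01. Neither direction held a member without overlap, beside 1.9% of all genes with all 3bKI arrays higher and 2.38% with all lower. Because the 3bKI arrays are the same in both comparisons, the differences from wt and from 3aKO are not independent of each other.

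The calls against 3aKO changed with single arrays left out. Of the 9 fits that leave out 1 array, Prox1 was called in 5, Cebpa in 3 and Nr5a2 in 1. Prox1 lost its call without 3aKO replicate 2 (adjusted p = 0.0558), 3aKO replicate 5 (0.0544), 3bKI replicate 3 (0.0610) or 3bKI replicate 4 (0.0523). Cebpa lost its call without 3aKO replicates 2, 4 or 5 or 3bKI replicates 2, 3 or 4 (0.0565 to 0.0625). Nr5a2 kept it only without 3bKI replicate 1 (0.0444) and had 0.0507 to 0.104 in the other 8 fits. All these changes stayed below 0, between -0.76 and -0.56 for Prox1, -0.48 and -0.39 for Cebpa, and -0.44 and -0.34 for Nr5a2.

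Sex and RNA quality moved with the groups. The 3aKO group held 2 males, and 3bKI held none that was read as male. In 3aKO livers of normalization 2, males and females averaged 8.35 and 7.83 for Prox1, 12.86 and 12.66 for Cebpa, and 9.83 and 9.84 for Nr5a2. In wt livers these means were 7.95 and 7.58, 12.66 and 12.44, and 9.98 and 9.83. Among females (3 tumours and 3 livers), Prox1 was at 7.31 to 7.40 in 3bKI and 7.69 to 7.95 in 3aKO. Cebpa was at 12.28 to 12.46 in 3bKI females and 12.58 to 12.82 in 3aKO females, and Nr5a2 at 9.35 to 9.62 in 3bKI females and 9.75 to 9.99 in 3aKO females. Among these 6 female arrays 4 of the 9 members (Hnf4a, Nr5a2, Cebpa and Prox1) were lower in 3bKI without overlap and 0 were higher, beside 13.8% and 12% of all genes, and 3 of the 4 had been called on the same arrays. A fit with sex as a covariate left out the 3bKI array whose sex could not be read. The changes of Prox1, Cebpa and Nr5a2 were then -0.48 (adjusted p = 0.0903), -0.32 (adjusted p = 0.162) and -0.40 (adjusted p = 0.184), none of them called. As the tumours left were all female, these changes equal those in females only. The beta-actin ratio did not overlap between 3bKI (0.70 to 0.87) and 3aKO (1.06 to 1.35), so a fit with it as a covariate can hardly tell ratio and group apart. In that fit limma called 0 genes of all 18193. The changes were -0.81 ± 0.37 for Prox1, -0.40 ± 0.24 for Cebpa and -0.28 ± 0.27 for Nr5a2 (adjusted p = 0.816 to 0.889). Their SEs without the covariate were 0.15, 0.09 and 0.11. Among wt livers, replicates 6 and 7 had ratios of 0.88 and 0.65, the first just above and the second below the range of the tumours, with Prox1 at 7.40 and 7.63, the lowest and the third lowest of wt, and Cebpa at 12.90 and 13.01, the highest 2 of wt. Without both, in a fit chosen after seeing the data, limma called 1457 of all 18193 genes in 3bKI against wt, 538 higher and 919 lower. The changes there were -0.54 for Prox1 (adjusted p = 0.0287) and -0.43 for Hnf4a (adjusted p = 0.0307), and both genes were among those called. Nr5a2, at -0.51 (adjusted p = 0.0718), and Cebpa, at -0.10 (adjusted p = 0.591), were not. With all wt livers and sex as a covariate, limma called none of these 4 genes in 3bKI against wt. The changes were then -0.23 for Prox1 (adjusted p = 0.577) and -0.26 for Hnf4a (adjusted p = 0.486). Those of Nr5a2 and Cebpa were -0.39 (adjusted p = 0.477) and -0.10 (adjusted p = 0.881). The part of sex and RNA quality in the results was not tested.

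**Figure D2:**
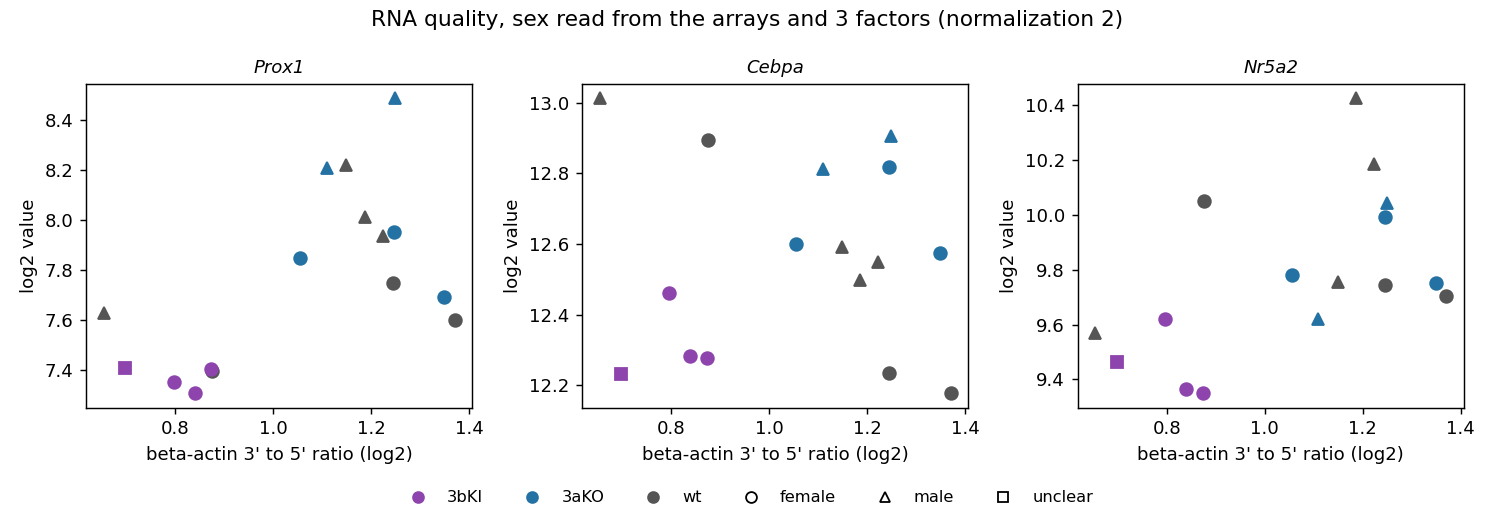
Log2 values of Prox1, Cebpa and Nr5a2 (vertical) against the 3'/5' ratio of the beta-actin control probe sets (log2, horizontal) in the 16 arrays of normalization 2, with colour for the group and shape for the sex read from the arrays. The 3bKI arrays lie between 0.70 and 0.87 and the 3aKO arrays between 1.06 and 1.35 on the horizontal axis, and wt replicates 6 and 7 are the 2 grey points at 0.88 and 0.65. Axes do not start at 0.

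**Figure D3:**
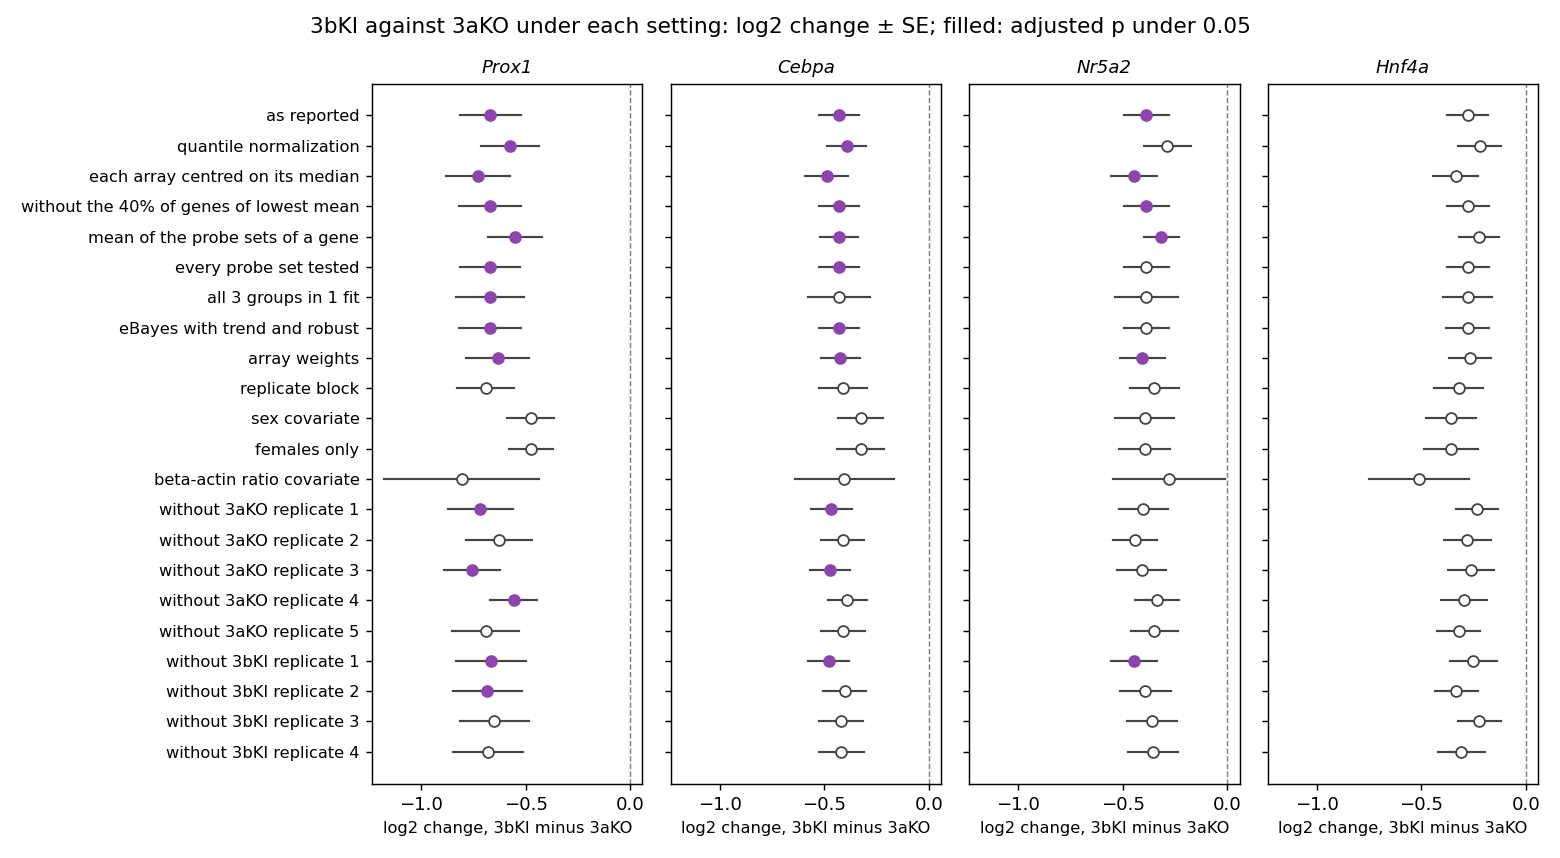
Log2 change of 3bKI against 3aKO (points, with SE) for Prox1, Cebpa, Nr5a2 and Hnf4a as reported and under each of 21 other settings, filled where the adjusted p is under 0.05. All points lie below 0, and Prox1 is called in 13, Cebpa in 10, Nr5a2 in 5 and Hnf4a in 0 of the 21.

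The partners of the 9 factors were read from a list of 45 other hepatocyte transcription factors, of which 42 were measured. In 3bKI tumours 4 of the 42 fell against 3aKO and 0 rose, beside the 6.27% called lower over all genes. They were Nfix (-0.64 ± 0.12, adjusted p = 0.0197) and Nfia (-0.45 ± 0.10, adjusted p = 0.0299), of the nuclear factor I family, Foxo1, a forkhead factor under insulin control (-0.60 ± 0.11, adjusted p = 0.0166), and Rxra, the shared partner of many nuclear receptors (-0.49 ± 0.12, adjusted p = 0.0328). Nfia was named after its value was seen. In all, 34 of the 42 lay below 0, with a median of -0.34, beside 45.3% of all genes below 0. Against wt, Zbtb20, a repressor of Afp (-0.76 ± 0.14, adjusted p = 0.0250), and Nfix (-0.72 ± 0.11, adjusted p = 0.0178) fell and 0 rose, beside 0.978% of all genes called lower. There 30 of 42 lay below 0, beside 46.9% of all genes, and the median was -0.30.

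Genes under these factors moved in both directions in 3bKI tumours. Of 23 measured HNF4A targets, 3 fell against 3aKO: Apob, the protein core of very low density lipoprotein (-1.24 ± 0.12, adjusted p = 0.00398), Slc10a1, the bile acid importer (-0.67 ± 0.17, adjusted p = 0.0418), and Slc27a5, a bile acid ligase (-0.53 ± 0.10, adjusted p = 0.0180). The lipase cofactor Apoc2 rose (0.97 ± 0.24, adjusted p = 0.0376), and the median of the list was -0.17. In this comparison 6.27% of all genes were called lower and 2.92% higher, and in 3bKI against wt 0.978% lower and 1.09% higher. Against wt, Slc27a5 fell (-0.54 ± 0.09, adjusted p = 0.0172) and Apoc2 rose (1.07 ± 0.22, adjusted p = 0.0362), with a median of -0.07. Of 11 C/EBP and FOXA targets, Tdo2, of tryptophan breakdown (-0.92 ± 0.19, adjusted p = 0.0242), and Cps1, of the urea cycle (-0.43 ± 0.09, adjusted p = 0.0215), fell against 3aKO. Tdo2 fell against wt as well (-1.02 ± 0.19, adjusted p = 0.0250). All 6 measured NR5A2 targets lay below 0 against 3aKO, beside 45.3% of all genes. Their median was -0.21, and none was called. Against wt 3 of the 6 lay below 0, beside 46.9% of all genes.

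Of 21 acute phase genes, the class that C/EBPbeta induces, 2 rose in 3bKI against 3aKO: Lcn2 (3.18 ± 0.87, adjusted p = 0.0496) and Serpina3n (0.76 ± 0.12, adjusted p = 0.0130), beside 2.92% of all genes. The list had 19 of 21 above 0 and a median of 0.28 against 3aKO, but 13 of 21 below 0 and a median of -0.07 against wt, with 0 called. Of all 18193 genes, 9948 lay above 0 against 3aKO and 46.9% below 0 against wt. The list's mean level ran from 11.17 to 12.47 in 3bKI, 10.66 to 11.38 in 3aKO and 10.90 to 12.64 in wt.

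Some markers of hepatocytes and of other cells were called as well. Over all genes, 6.27% were called lower and 2.92% higher in 3bKI against 3aKO. Against wt the shares were 0.978% and 1.09%. Apob and Cps1 also stand in the target lists above, so they are counted again here. Of 14 hepatocyte markers, Apob, Hpd (-0.59 ± 0.12, adjusted p = 0.0241) and Cps1 fell in 3bKI against 3aKO, and the list's mean level was 13.18 to 13.35 in 3bKI, 13.43 to 13.53 in 3aKO and 13.32 to 13.46 in wt. Stellate cell and fibroblast markers rose: 4 of 10 against 3aKO, Col3a1 (1.55 ± 0.37, adjusted p = 0.0353), Col1a1 (1.15 ± 0.16, adjusted p = 0.0109), Col1a2 (1.15 ± 0.23, adjusted p = 0.0207) and Timp1 (1.05 ± 0.17, adjusted p = 0.0134), the last named after its value was seen. The same 4 rose against wt. Their mean level over the list was 7.69 to 8.52 in 3bKI, 7.19 to 7.75 in 3aKO and 7.05 to 7.56 in wt. Of 11 macrophage and monocyte markers, Lyz2 (1.06 ± 0.27, adjusted p = 0.0397) and Ccr2 (0.41 ± 0.10, adjusted p = 0.0368) rose and Cd163 fell (-1.69 ± 0.43, adjusted p = 0.0403) against 3aKO, and Cd163 fell against wt too (-1.90 ± 0.39, adjusted p = 0.0341). Of 9 neutrophil markers Elane rose (0.41 ± 0.09, adjusted p = 0.0247), and of 9 T and B cell markers Cd79a rose (0.40 ± 0.11, adjusted p = 0.0497), both against 3aKO, and 0 of either list were called against wt. The mean level of the neutrophil list was 5.38 to 6.17 in 3bKI, 5.20 to 5.80 in 3aKO and 5.13 to 5.76 in wt, and that of the T and B cell list was 5.85 to 6.76 in 3bKI, 5.79 to 6.31 in 3aKO and 5.63 to 6.46 in wt. Of the bile duct and progenitor markers 0 of 8 were called, with all 8 above 0 against 3aKO, beside 9948 of all 18193 genes. The part of these cells in the falls of Prox1, Cebpa and Nr5a2 was not tested.

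Some oncofetal genes rose in the same tumours. Against 3aKO, 4 of 11 were called higher, beside 2.92% of all genes, 0 were called lower and 7 did not pass: Afp (1.42 ± 0.33, adjusted p = 0.0318), Igf2 (1.37 ± 0.25, adjusted p = 0.0176), Sox4 (0.82 ± 0.14, adjusted p = 0.0155) and Dlk1 (0.57 ± 0.14, adjusted p = 0.0401), the last named after its value was seen. Against wt, Igf2 (1.48 ± 0.24), Sox4 (0.94 ± 0.11) and Dlk1 (0.67 ± 0.14) rose (adjusted p = 0.00503 to 0.0364), 3 of 11 beside 1.09% of all genes. Of 11 cell division genes, a class that includes E2F targets, 0 were called in either 3bKI comparison. All 11 lay above 0, with medians of 1.05 against 3aKO and 1.47 against wt. Of all 18193 genes, 9948 and 9653 lay above 0 in these comparisons.

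In 1KI tumours none of the 9 factors was called against wt or against 3aKO liver. Foxa3 lay farthest from both, at 167% of wt and 178% of 3aKO, without passing the test. Hnf4a, with values near those of both normal groups, had the narrowest interval in each comparison. Over all genes limma called 0.242% against wt and 0% against 3aKO, and at an unadjusted p under 0.05 it found 1 member and 3465 genes against wt, and 2 members and 2550 genes against 3aKO. The median of the members was 0.13 against wt and 0.01 against 3aKO, and that of all genes -0.03 and -0.02. No member lacked overlap in either comparison, beside 1.98% and 3.41% of all genes.

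Foxa3 was at 10.24, 10.36, 11.0, 10.61 and 9.78 in 1KI tumours, against 9.78, 10.17, 9.41, 9.36 and 9.11 in 3aKO livers. Of the 5 tumours, 4 lay above every 3aKO liver. Wt livers ran from 9.07 through a median of 9.55 to 10.32, below the highest 3 of the tumours. The change was 0.83 ± 0.24 against 3aKO (adjusted p = 0.232) and 0.74 ± 0.24 against wt (adjusted p = 0.165). The highest 2 tumours were replicates 3 and 4, which stood apart on the first principal component, and without both the change was 0.56 against 3aKO (adjusted p = 0.510) and 0.47 against wt (adjusted p = 0.587). With sex in the fit it was 0.72 against wt (adjusted p = 0.0625).

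Foxa1 was at 8.62, 8.86, 8.86, 7.92 and 8.93 in 1KI tumours, against 8.36, 8.15, 7.67, 8.55 and 7.95 in 3aKO livers, with wt between 7.63 and 9.10 and a median of 8.48. Its change was 0.50 ± 0.22 against 3aKO (adjusted p = 0.347) and 0.18 ± 0.24 against wt (adjusted p = 0.675). Foxa2 was at 10.30, 9.63, 9.76, 9.98 and 10.62 in 1KI tumours, with changes of -0.09 ± 0.20 against wt and -0.04 ± 0.23 against 3aKO. In each Foxa gene the groups overlapped.

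Hnf4a was at 12.54, 12.75, 12.56, 12.54 and 12.36 in 1KI tumours, against 12.71, 12.55, 12.59, 12.47 and 12.37 in 3aKO livers, and from 12.21 through a median of 12.68 to 12.82 in wt livers. The 3 groups lay on top of each other. The change was 0.01 ± 0.09 against 3aKO, with a 95% interval of -0.19 to 0.21, and -0.05 ± 0.11 against wt, with an interval of -0.28 to 0.19. Nr5a2 was at 9.82, 9.98, 10.26, 10.21 and 9.83 in 1KI tumours, with changes of 0.02 ± 0.12 against 3aKO and -0.05 ± 0.14 against wt. Its probe set 1449706_s_at gave -0.28 ± 0.08 against 3aKO (adjusted p = 0.252) and -0.30 ± 0.10 against wt (adjusted p = 0.191).

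Cebpa was at 12.63, 12.19, 12.73, 13.01 and 12.98 in 1KI tumours, with a change of -0.06 ± 0.15 against 3aKO (adjusted p = 0.869) and 0.13 ± 0.17 against wt (adjusted p = 0.688). Cebpb was at 10.60, 10.23, 9.98, 10.15 and 11.07 in 1KI tumours, with a change of -0.30 ± 0.26 against 3aKO (adjusted p = 0.609) and -0.30 ± 0.22 against wt (adjusted p = 0.453). The 2 lowest Cebpb values again belonged to replicates 3 and 4.

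Prox1 was at 8.36, 8.49, 8.34, 8.12 and 8.17 in 1KI tumours, against 8.05, 8.48, 7.94, 8.74 and 8.14 in 3aKO livers and 7.59 to 8.37 with a median of 8.0 in wt livers. Its change was 0.03 ± 0.15 against 3aKO (adjusted p = 0.955) and 0.28 ± 0.13 against wt (adjusted p = 0.267). Onecut1 was at 8.72, 8.36, 7.35, 7.63 and 9.56 in 1KI tumours, with an SD of 0.88 and changes of -0.13 ± 0.39 against 3aKO (adjusted p = 0.901) and 0.58 ± 0.39 against wt (adjusted p = 0.413). The 2 females, replicates 1 and 5, held the highest 2 values, and the males lay between 7.35 and 8.36. The lowest 2 values of Onecut1 were those of replicates 3 and 4, and without both its change was 0.42 against 3aKO (adjusted p = 0.747) and 1.13 against wt (adjusted p = 0.381). Leaving out 1 array gave changes of -0.44 to 0.11 against 3aKO, above 0 without 1KI replicate 3, 1KI replicate 4 or 3aKO replicate 3, and of 0.27 to 0.82 against wt.

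**Figure D4:**
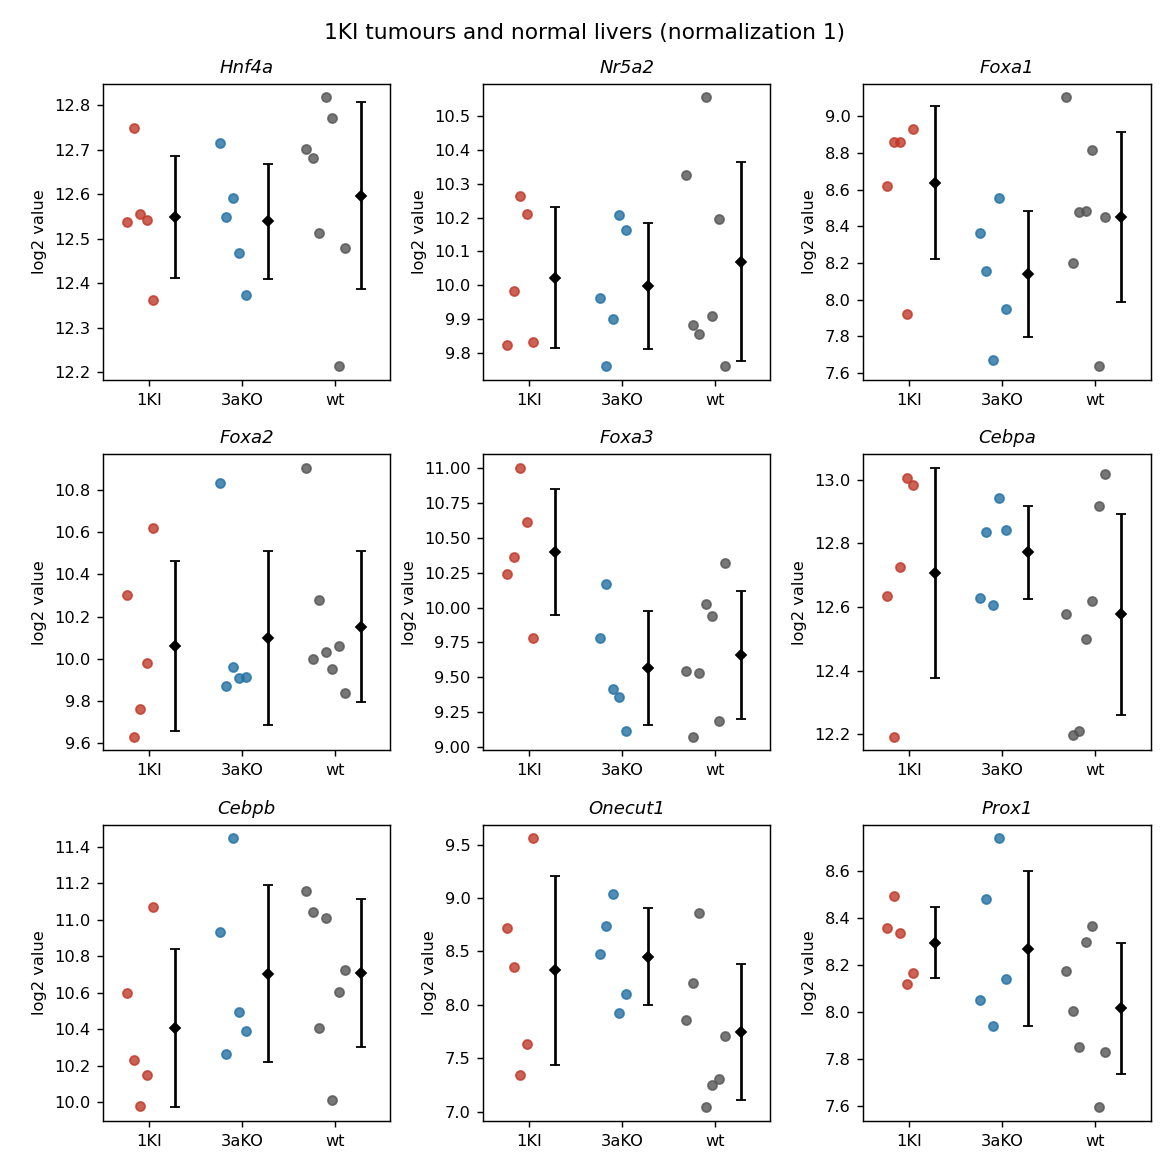
Each panel plots 1 factor's log2 value per array (points) in 1KI tumours (5 arrays), 3aKO livers (5) and wt livers (7) of normalization 1, with the group mean and SD as a black diamond and bar. Vertical scales differ between panels and do not start at 0. In the Foxa3 panel 4 of the 5 tumour points lie above every 3aKO point, and in every panel the tumour points overlap with those of both normal groups.

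Of the 42 other hepatocyte transcription factors, the 23 HNF4A targets, the 11 C/EBP and FOXA targets and the 6 NR5A2 targets, 0 were called in 1KI tumours against wt or 3aKO. The medians against wt were -0.11, -0.05, -0.11 and -0.10. Against 3aKO they were -0.14, -0.25, -0.19 and -0.40, with 29 of 42, 16 of 23, 8 of 11 and 4 of 6 below 0. Of all genes 54.7% lay below 0 against 3aKO, with a median of -0.02. The calls against wt in the other lists were higher Cd24a (1.39 ± 0.25, adjusted p = 0.0443), a surface protein of progenitor cells, Igf2 (1.38 ± 0.22, adjusted p = 0.0285), Pdgfrb of stellate cells (0.76 ± 0.12, adjusted p = 0.0285) and Plvap of endothelium (1.00 ± 0.16, adjusted p = 0.0334). They make up 1 of 8 bile duct and progenitor markers, 2 of 11 oncofetal genes, 1 of 10 stellate markers and 1 of 10 endothelial markers. Cd24a stands in 2 of these lists. Over all genes 0.242% were called in that comparison, 38 higher and 6 lower. Below 0 against wt lay 9 of 11 macrophage, 9 of 9 neutrophil and 8 of 9 T and B cell markers. Of all genes 56.7% did. The median was 1.39 for oncofetal and 0.96 for cell division genes, of which 0 of 11 were called. The mean level of the 14 hepatocyte markers ran from 12.77 to 13.52 in 1KI, 13.47 to 13.57 in 3aKO and 13.37 to 13.51 in wt. That of the stellate markers was 7.92 to 8.33 in 1KI, 7.30 to 7.86 in 3aKO and 7.16 to 7.68 in wt, so that 1KI did not overlap with the normal livers.

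In normal 3aKO liver, 0 of the 9 factors was called against wt, beside 0% of all genes called by limma and 1357 genes and 1 member at an unadjusted p under 0.05. That member was Onecut1, at 8.47, 8.74, 9.03, 7.92 and 8.10 in 3aKO livers, against 7.04 to 8.86 with a median of 7.71 in wt livers (normalization 1). Its change was 0.71 ± 0.29 (adjusted p = 0.655), and 0.41 (adjusted p = 0.887) in females only. No member was free of overlap, beside 0.5% of all genes. The other 8 changes lay between -0.31 (Foxa1) and 0.25 (Prox1), with a median over all 9 of -0.05. The widest of their 95% intervals, those of Cebpb and Foxa3, ran from -0.49 to 0.49 and from -0.58 to 0.40. Acute phase genes lay lower in 3aKO for 20 of 21 (median -0.36), beside 49.5% of all genes, with 0 called.

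**Figure D5:**
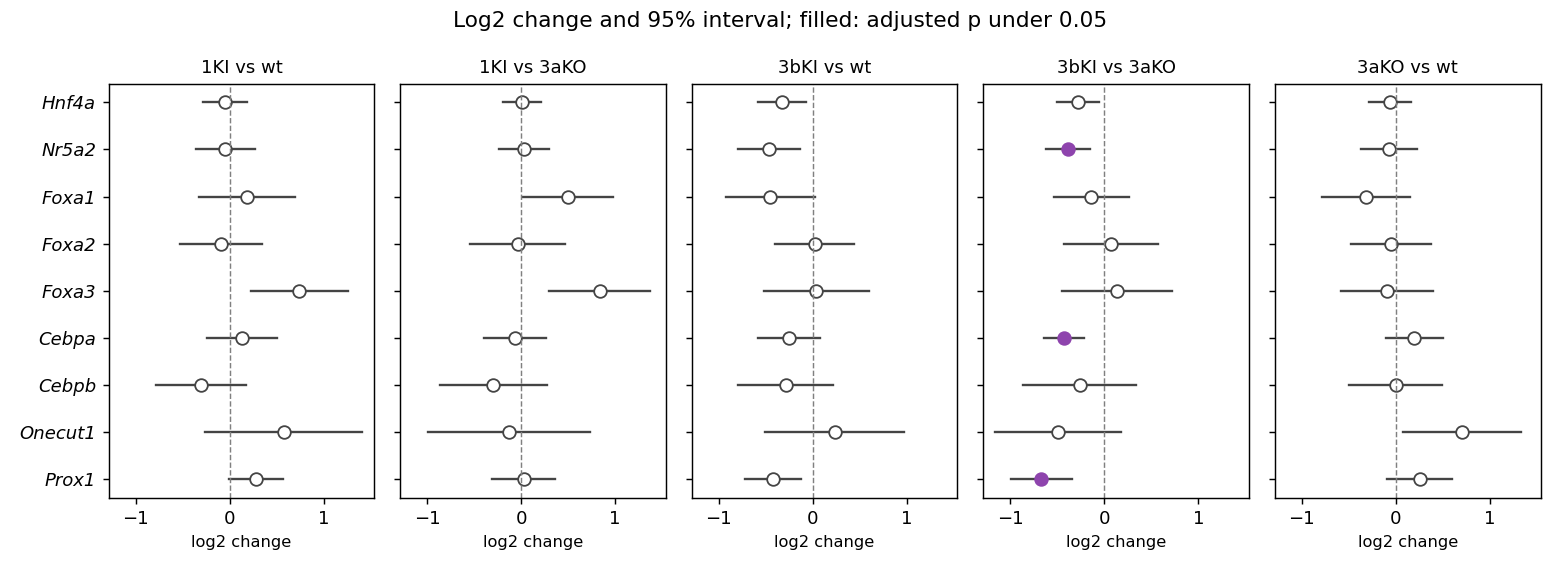
Log2 change (points) with its 95% interval (lines) for the 9 factors in each of the 5 comparisons, filled where the adjusted p over all genes is under 0.05. Negative values are lower in the group named first. The 3 filled points, Nr5a2, Cebpa and Prox1, are all in 3bKI vs 3aKO and all below 0.

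Ordered by level, the groups of normalization 2 ran 3bKI, 3aKO, wt from low to high for Hnf4a, Nr5a2, Foxa1 and Cebpb, and 3bKI, wt, 3aKO for Cebpa and Prox1. Onecut1 ran wt, 3bKI, 3aKO, and Foxa2 and Foxa3 ran 3aKO, wt, 3bKI. Neighbours in these orders overlapped in every case and none of them was called apart, except 3bKI and 3aKO for Nr5a2. For Cebpa and Prox1 the called pair stands at the 2 ends of the order.

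Within groups, the factors did not vary as 1 block. After each group's mean was subtracted, Pearson's r over the 17 arrays of normalization 1 ran from -0.686 (Nr5a2 and Onecut1) to 0.668 (Foxa1 and Prox1) over the 36 pairs of members, with 21 pairs above 0. Foxa1 and Prox1 had an r of 0.730 over the 16 arrays of normalization 2, and Hnf4a and Cebpa had -0.602 and -0.499. The normalizations share 12 arrays, and arrays of 1 sex or RNA quality can vary together, so these are descriptions.

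For each factor the genes whose values followed it most closely in this way were also read. Foxa3 was followed by Xbp1, a factor of the unfolded protein response, with r of 0.915 in normalization 1 and 0.903 in normalization 2. Cebpb was followed by the kinase gene Pim3 (0.923 and 0.923), Cebpa by Wbp2 (0.910 and 0.930), and Prox1 by Txnl4a (0.952 and 0.900), Xiap (0.914 and 0.905) and Ythdf3 (0.912 and 0.877). Hnf4a was followed by Ttpal (0.889 and 0.807), the fibrinogen gene Fgg (0.856 and 0.836) and Clock (0.839 and 0.795), and Nr5a2 by Plpp6 (0.891 and 0.814) and the tight junction gene Ocln (0.838 and 0.833). The top gene of Onecut1, Ndufv2, had 0.863 in normalization 1 and 0.288 in normalization 2. Each was picked as highest among all genes above the median level, and leaving out 1KI replicates 3 and 4 gave 0.966 for Prox1 and Txnl4a and 0.899 for Foxa3 and Xbp1.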

How the data were processed

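RNA of 21 livers or liver tumours was measured on Affymetrix mouse arrays, from 5 ug of total RNA taken with Trizol, per the labels. The deposited log2 values per probe set were made by the authors in 2 separate normalizations, per the labels, by a method not given in the sources used here. Of 45101 probe sets, 34945 carry 1 symbol, and the one with the highest mean over all columns stood for each of 18193 genes. No filter on dim probe sets was used. For a comparison, lmFit and eBayes of limma 3.58.1, run in R 4.3.3, were applied to the arrays of its 2 groups alone, two-sided, with Benjamini-Hochberg adjustment over all genes, after a test on simulated data.

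The members, the 14 gene lists and the tests were chosen with earlier results of these data known. Named were the members, E2f1 and E2f3, up to 3 called list genes per direction (or 3 of lowest p), and the 3 genes most like a member. Likeness was taken among genes with a mean above 6.45. The labels do not state whether replicate numbers pair animals, and the main fits took no pairing. Same-number correlations ran from -0.469 to 0.443, and from 0.063 to 0.278 in 3bKI against 3aKO. Where nothing states separate animals, p-values measure the spread between samples. An array was read as female where Xist was above 10, and as male where 3 genes of the Y chromosome averaged above 5. The number of arrays limits precision. The alternatives are in the closing section.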

Additional observations from a re-analysis of the deposited data

Results flagged for a closer look

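Foxa2 stood out in 1 array of each normal group of normalization 1, as the highest value at a gap that few samples of this size would give. In 3aKO replicate 1 it was 10.83, with the next 3aKO value at 9.96. In wt replicate 1 it was 10.91, with the next wt value at 10.28. Of 36 groups of values examined, about 5% would be picked by chance, and the groups picked here are close to that share. The gap over the range of the group was 0.904 in 3aKO and 0.586 in wt. Both arrays carry the number 1, which the labels do not tie to a shared day or litter. In normalization 2 the same arrays had 10.72 and 10.76.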

How the results depend on the processing

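Over 1062 recomputed member values, 927 kept direction and call, 35 lost the call (all in 3bKI against 3aKO), 2 gained it (Hnf4a and Prox1 in 3bKI against wt, without wt replicates 6 and 7), 0 called values changed sign and 98 uncalled values did, 48 of them on leaving out 1 array. The replicate block ended the calls of Prox1 (adjusted p = 0.0701), Cebpa (0.0981) and Nr5a2 (0.135), and Nr5a2 also lost its call with quantile normalization (0.15), all 3 groups in 1 fit (0.105, Cebpa 0.0683) and trend and robust (0.0512). Females only, beta-actin and the fit without wt 6 and 7 were chosen after seeing the data. The fits of 3bKI with sex left out the array whose sex could not be read.

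Counts of called genes moved more. Leaving out 1 array gave 0 to 1 (3aKO against wt), 2 to 69 (1KI against wt), 0 to 6 (1KI against 3aKO), 49 to 848 (3bKI against wt) and 490 to 1440 (3bKI against 3aKO). For 3aKO against wt (0) the counts were 2 with every probe set, 1 with all 3 groups and 1 with the replicate block. For 1KI against wt (44) they were 72 with every probe set, 313 with all 3 groups, 69 with array weights, 1 with the replicate block, 93 with sex, 13 in females only and 70 with beta-actin. For 1KI against 3aKO (0) they were 1 with quantile normalization, the filter or trend and robust, 11 with every probe set, 57 with all 3 groups, 15 with array weights, 3 with sex, 6 in females only and 23 without 1KI 3 and 4. For 3bKI against wt (199 higher, 178 lower) they were 745 with centring (197 and 548), 996 with all 3 groups, 766 with array weights, 694 with the replicate block, 67 with sex, 16 in females only, 0 with beta-actin and 1457 without wt 6 and 7. For 3bKI against 3aKO (531 higher, 1140 lower) they were 847 with quantile normalization (385 and 462), 3435 with every probe set, 50 with the replicate block, 145 with sex, 31 in females only and 0 with beta-actin, and centring split the calls 328 and 1638. The cause was not tested.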
